A study of Oryctolagus cuniculus with 16 samples.

Results

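The genes described are the lysosomal genes of the rabbit that encode hydrolases, membrane proteins and the sorting proteins that supply them. They were taken as every gene of the deposited gene table that carries the KEGG pathway term for the lysosome, leaving out symbols that start with CTS (named cathepsins) or ATP6 (subunits of the proton pump) and the genes *TCIRG1* and *ACP5*. This gave 97 of the 20255 genes listed. The rule reads symbols only, so 3 genes described as cathepsin L1 but named by an identifier were included, as were the coat and adaptor genes that KEGG places in the same pathway.

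Femoral head tissue was analysed by total RNA-seq, with the question of which transcripts change when the blood supply of the growing femoral head is interrupted. The Perthes group consisted of 5 wild-type rabbits, 8 weeks old at surgery, operated on to cut off the blood supply of the femoral head, by division of the ligamentum teres and a permanent elastic tie around the neck of the femur. The control group consisted of 3 rabbits labelled as wild type, and their age, any sham operation and the time between surgery and sampling are not given in the sources used here. Libraries held from 27331725 to 29461482 counts in the Perthes group and from 26757087 to 28783082 counts in the control group. Values are given as CPM, counts for each 1000000 counts of a library after TMM scaling, for Perthes rabbits 1 to 5 and control rabbits 1 to 3 in that order.

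Lysosomes break down material that reaches them by endocytosis, phagocytosis and autophagy. Most soluble hydrolases are tagged with mannose 6-phosphate in the Golgi, bound by receptors there and carried in coated vesicles towards endosomes, while heavily glycosylated membrane proteins line the organelle and transporters release the products of digestion. In bone, macrophages and osteoclasts are rich in lysosomes, and osteoclasts also release lysosomal enzymes onto the bone surface.

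Of the 97 members, 94 passed the filter on low counts and were tested together with all other genes, 15305 in total, with edgeR's quasi-likelihood test and Benjamini-Hochberg adjustment. A gene was called at an adjusted p below 0.05. In Perthes rabbits 22 members were higher, against 6.21% of all genes tested, and 3 were lower, against 8.86%. Of the 22, 15 encode hydrolases or their activators, 6 encode membrane proteins and 1 is the mannose 6-phosphate receptor gene *IGF2R*. The other 69 tested members did not pass. The median log2 fold change was 0.55 over the tested members and 0.02 over all genes tested. Every Perthes rabbit lay above every control in 26 tested members (11.2% of all genes tested) and below every control in 5 (13.9%). DESeq2 called 37 members higher, with a background of 11.3% of all genes, and 4 lower, with a background of 12.5%. In bulk tissue, more or fewer cells of a type and more or less RNA per cell cannot be told apart.

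These calls depended on which rabbits were included. Without control rabbit 2 no gene of the whole table was called by edgeR, so every count of a gene list given here is 0 in that fit. There, 37 of 94 members had an unadjusted p below 0.05, against 23.9% of all genes. Without control rabbit 1 there were 2 members higher and 0 lower, with 45 of 94 at an unadjusted p below 0.05, against 24.9% of all genes. Without control rabbit 3 there were 14 and 3. Leaving out Perthes rabbit 3 or Perthes rabbit 5 gave 11 higher and 1 lower each, leaving out Perthes rabbit 4 gave 40 and 2, and leaving out Perthes rabbit 1 gave 18 and 1. Leaving out Perthes rabbit 2 gave 24 and 3. Calls over all genes moved as well, with 951 genes higher with all rabbits, 802, 941, 385, 1267 and 351 without Perthes rabbits 1 to 5 in turn, and 73, 0 and 695 without controls 1 to 3. For genes called lower over all genes these were 1356 with all rabbits, 1198, 1628, 646, 1423 and 550 without Perthes rabbits 1 to 5, and 184, 0 and 1183 without controls 1 to 3. All 25 called members kept their direction in each of these fits. The median over the members ranged from 0.48 to 0.63 when 1 rabbit was left out. The members called higher in the fit of all rabbits and also without any 1 Perthes rabbit, without control rabbit 3 and under the other scalings and filters were 11 genes, among them *HEXA*, *GLB1*, *ASAH1*, *PLA2G15*, *IGF2R*, *NPC1*, *LGMN*, *CD68*, *CD63* and the cathepsin L1 gene *LOC100008830*.

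**Figure D1:**
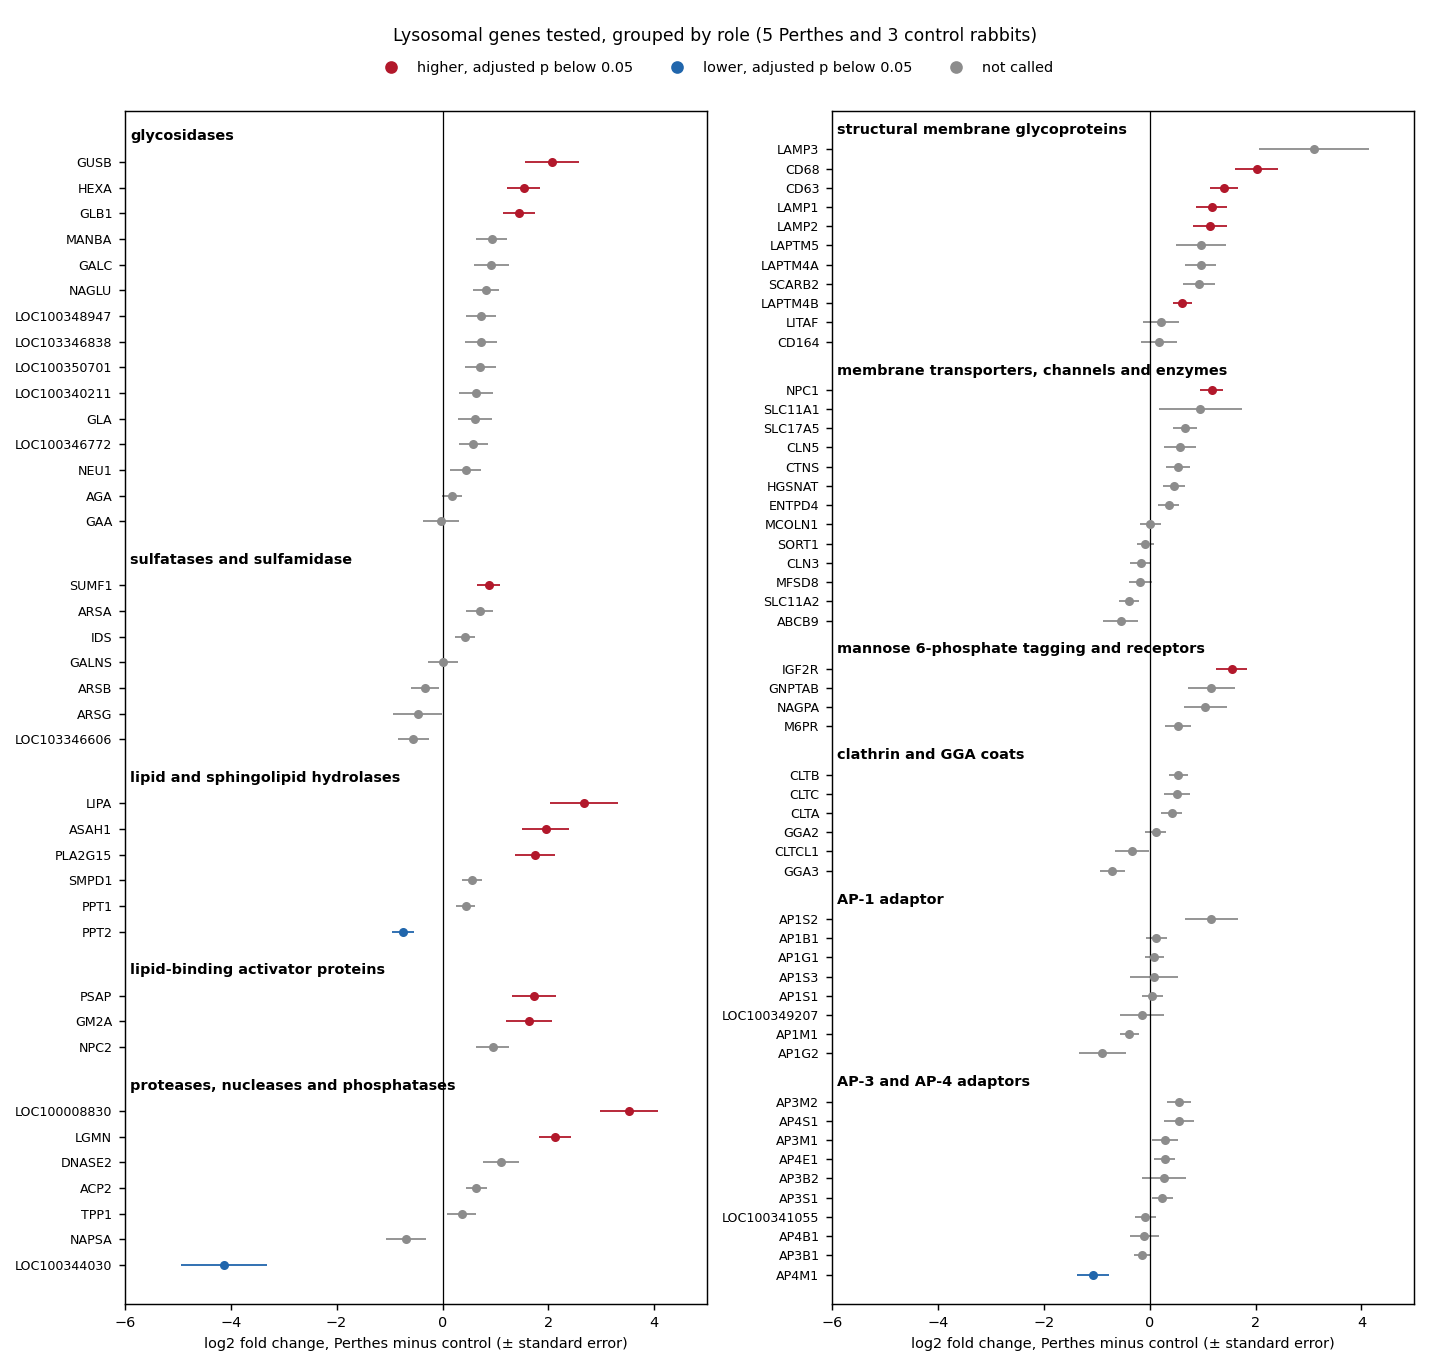
Log2 fold change of 90 of the 94 tested members in Perthes relative to control rabbits (x axis, log2 scale) with the standard error as a bar, grouped by role. Points in red are 18 members called higher, points in blue the 3 called lower and points in grey the 69 not called (the 4 not drawn were called higher), and the medians over all tested members were 0.10 over the coats and adaptors and 0.73 over the hydrolases and activators.

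Glycosidases remove sugars from glycolipids, glycoproteins and glycosaminoglycans. Of 18 tested, 6 rose, with a median log2 fold change of 0.78. *HEXA* (gene 100008950), the alpha subunit of beta-hexosaminidase, was at 489.7, 526, 753, 269.7 and 495 CPM in Perthes rabbits and 195, 159 and 169.6 CPM in controls. All Perthes rabbits were above the controls, and Perthes rabbit 4 was the lowest of them. The log2 fold change of *HEXA* was 1.54 (adjusted p = 0.0165, with a standard error of 0.31).

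*GLB1* (100339251), the beta-galactosidase that removes terminal galactose, reached 381, 227, 388, 181 and 401 CPM in Perthes rabbits and 117, 105 and 124 CPM in controls. The groups did not overlap, and the difference was 1.45 on the log2 scale (adjusted p = 0.0177, with a standard error of 0.30). *GUSB* (100347788), the beta-glucuronidase of glycosaminoglycan breakdown, was measured at 453, 241, 412, 79.3 and 415 CPM and 86.2, 74.8 and 67.6 CPM. Perthes rabbit 4 lay within the range of the controls here, whereas the other 4 Perthes rabbits were far above it. The change of *GUSB* was 2.07 (adjusted p = 0.0294, with a standard error of 0.51).

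Other glycosidases did not pass the test. *MANBA*, a beta-mannosidase, and *GALC*, the galactosylceramidase, had log2 fold changes of 0.93 (adjusted p = 0.0638, with a standard error of 0.30) and 0.92 (adjusted p = 0.0923, with a standard error of 0.33). *NAGLU*, an enzyme of heparan sulfate breakdown, had 0.82 with an adjusted p of 0.0507, although all Perthes rabbits lay above the controls. The acid alpha-glucosidase *GAA*, which digests glycogen, was at 12.6, 13.8, 13.1, 6.84 and 16.6 CPM and 19.3, 10.9 and 8.35 CPM, and its estimate was -0.03 (adjusted p = 0.964, with a standard error of 0.33). *AGA* at 0.18 and the sialidase *NEU1* at 0.43 were also not called.

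A total of 5 members are described as lysosomal alpha-mannosidase. Their expected counts were not whole numbers in any library, as arises when reads that map to several genes are shared out, so the division between the 5 genes is uncertain. Their log2 fold changes lay between 0.58 and 0.73. By edgeR 0 were called, with 3 at an unadjusted p below 0.05, and by DESeq2 0. In each of the 5 genes the groups overlapped. In the RefSeq annotation of assembly mOryCun1.1, in which 93 of the 97 members were matched by gene identifier, 1 of the 5 (*LOC103346838*) is named *MAN2B1*.

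Sulfatases remove sulfate groups from glycosaminoglycans and sulfolipids. Of 8 tested genes, the sulfatases together with their activator *SUMF1*, 2 rose, *SUMF1* among them, and the median was 0.22. *SUMF1* (100346570), which activates all sulfatases by modifying a cysteine of their active site, had 48.4, 49.02, 60.00, 44.9 and 58.6 CPM in Perthes rabbits and 38.2, 22.3 and 25.2 CPM in controls. All controls were below the lowest Perthes rabbit, with a log2 fold change of 0.87 (adjusted p = 0.0267, with a standard error of 0.21). The arylsulfatase A gene *ARSA* had 0.70 and the iduronate sulfatase gene *IDS* 0.43, with adjusted p-values of 0.0909 and 0.163. Arylsulfatase B was listed as 2 genes, *ARSB* at -0.33 and *LOC103346606* at -0.55, with adjusted p-values of 0.424 and 0.229, so that the estimates of both were negative without passing the test.

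The lipid hydrolases held 3 genes that rose and 1 that fell among 6 tested, with a median log2 fold change of 1.15. *LIPA* (100338588), the acid lipase that splits cholesterol esters and triglycerides, was at 911, 426, 519.9, 83.8 and 679 CPM in Perthes rabbits and 81.7, 85.5 and 80.5 CPM in controls. Perthes rabbit 4 was at the level of the controls, while the other 4 Perthes rabbits exceeded them severalfold. The log2 fold change was 2.67 (adjusted p = 0.0262, with a standard error of 0.64). *ASAH1* (100338209), the acid ceramidase, had 209, 94.5, 128, 58.5 and 196 CPM and 24.5, 39.6 and 42.6 CPM. All Perthes rabbits were higher than all controls, and the change was 1.95 (adjusted p = 0.0217, with a standard error of 0.44). *PLA2G15* (100355284), a lysosomal phospholipase, was at 62.8, 51.6, 57.5, 23.8 and 95.5 CPM and 16.9, 16.5 and 18.7 CPM. Here too the groups were apart, by 1.75 on the log2 scale (adjusted p = 0.0203, with a standard error of 0.38).

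The thioesterase gene *PPT2* (100358167) went the other way, at 17.3, 21.9, 18.98, 23.9 and 21.3 CPM in Perthes rabbits and 47.8, 28.3 and 28.2 CPM in controls. Every Perthes rabbit was below every control, and the log2 fold change was -0.75 (adjusted p = 0.0439, with a standard error of 0.21). The related *PPT1*, which removes palmitate from proteins, had 0.44 (adjusted p = 0.124, with a standard error of 0.18). For the acid sphingomyelinase *SMPD1* the groups were apart at 0.56, but the adjusted p was 0.0724.

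Activator proteins present lipids to the hydrolases, and 2 of 3 tested rose, with a median of 1.63. *PSAP* (100359322), the precursor of the saposins, took more counts than any other member and had 3078, 2106, 2540.0, 755 and 2209 CPM in Perthes rabbits and 686, 638 and 602 CPM in controls. In rabbit 4 of the Perthes group the level was only slightly above the highest control, and in the others well above it. The log2 fold change was 1.74 (adjusted p = 0.0261, with a standard error of 0.42). *GM2A* (100346953), the activator of ganglioside GM2 breakdown, was at 581, 369, 534, 153 and 366 CPM and 81.8, 164 and 144 CPM. Perthes rabbit 4 lay between the controls, and the change was 1.63 (adjusted p = 0.0373, with a standard error of 0.44). *NPC2*, which binds cholesterol in the lumen, had 0.95 and was not called (adjusted p = 0.0724). A second gene described as GM2 activator, *LOC100357920*, had at most 1 count in any library and was not tested.

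Among proteases, nucleases and phosphatases, 2 of 7 tested genes rose and 1 fell, with a median log2 fold change of 0.64. *LOC100008830*, a gene described as cathepsin L1, was at 903, 356, 562, 163 and 626 CPM in Perthes rabbits and 47.8, 34.9 and 53.8 CPM in controls. The lowest Perthes rabbit, rabbit 4, was well above the highest control. With a log2 fold change of 3.52 (adjusted p = 0.0120, with a standard error of 0.55) its estimate was the highest of the 94 tested members. *LGMN* (100346565), or legumain, a protease that cuts after asparagine and processes cathepsins, had 702, 490.5, 723, 421 and 950.4 CPM and 132, 154 and 166 CPM. Its groups were far apart, with a change of 2.13 (adjusted p = 0.0118, with a standard error of 0.30), and *LGMN* and *SUMF1* were the 2 members still called without control rabbit 1.

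Another gene described as cathepsin L1, *LOC100344030*, had 0, 2, 3, 0 and 0 counts in Perthes rabbits and 23, 24 and 13 counts in controls. Every Perthes library was at 3 counts or fewer, and every control was above all of them. The level in controls was 19.5 times that in Perthes rabbits, with a 95% exact binomial interval of 7.91 to 62.2 that covers counting error only, and edgeR's adjusted p was 0.0153. The third, *LOC100347623*, had at most 9 counts in any library and was not tested, as was the nuclease gene *DNASE2B* with at most 8. Without the cathepsin L1 genes, an alternative added after the data were seen, 21 members were higher and 2 lower. *DNASE2*, the acid nuclease that digests engulfed DNA, had 1.11 (adjusted p = 0.0570), the acid phosphatase *ACP2* 0.64 (adjusted p = 0.0600) and the peptidase *TPP1* 0.37 (adjusted p = 0.393), and none of them passed.

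Lists by substrate cover part of the enzymes and their helpers, matched by gene symbol. They leave out *PPT2*, the cathepsin L1 genes, the 5 alpha-mannosidase genes and the arylsulfatase B gene *LOC103346606*. Of 16 tested genes acting on sphingolipids and cholesterol esters, 10 rose, with a median log2 fold change of 1.19. Of 10 tested genes of glycosaminoglycan breakdown, 5 rose, among them *GUSB*, *GLB1* and *HEXA*, with a median of 1.02. *LOC103346606*, not in this list, had -0.55. Under the KEGG term for glycosaminoglycan degradation, 5 of 11 tested members rose with a median of 0.82. Of 7 genes that trim the sugar chains of glycoproteins, 4 rose with a median of 1.21. The 5 alpha-mannosidase genes, not in this list, had a median of 0.71 with 0 called. Under the KEGG term for other glycan degradation, which is a wider list, 4 of 12 tested members rose with a median of 0.73. The lists share members such as *HEXA* and *GLB1*, so their counts are not independent of each other.

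**Figure D2:**
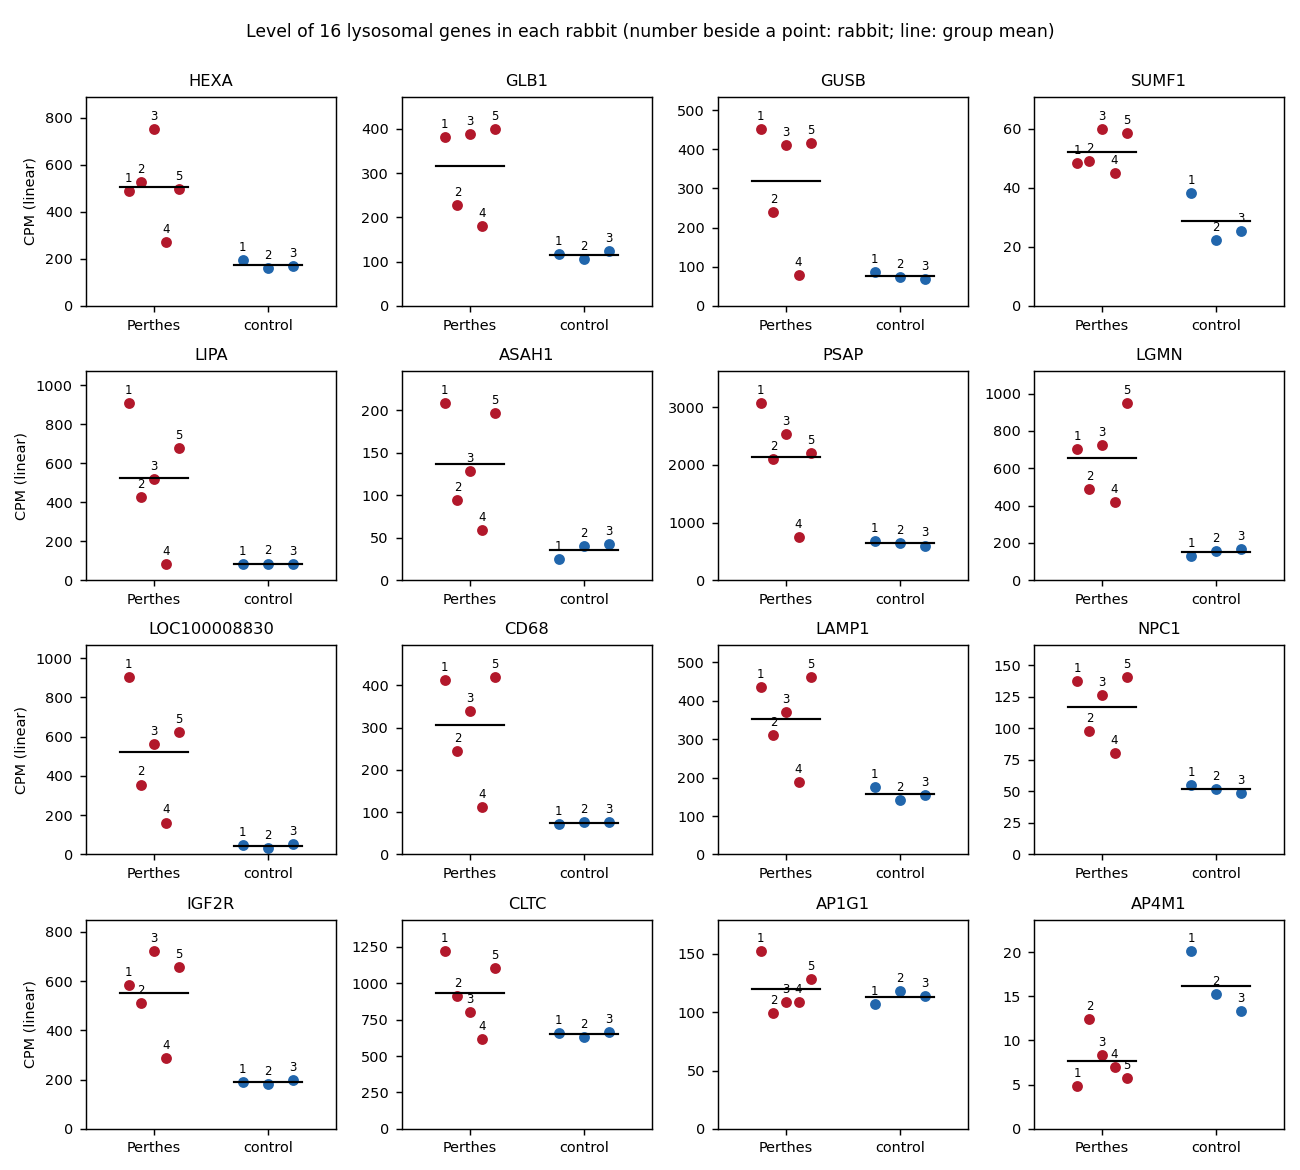
CPM (y axis, linear from 0) of 16 members in each Perthes and control rabbit, with the rabbit's number beside its point and a line at the group mean. Perthes rabbit 4 is the lowest Perthes rabbit for most of the genes that rose, and in *GUSB* and *LIPA* it lies among the controls.

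The list of structural membrane proteins holds glycoproteins that line the organelle and other proteins of its membrane. Of 11 tested, 5 rose, and the median was 0.97. *CD68* (100344094), a LAMP family protein widely used as a macrophage marker, was at 413, 244, 339, 113 and 419 CPM in Perthes rabbits and 70.96, 77.6 and 77.8 CPM in controls. The controls lay close together and below all Perthes rabbits, with a log2 fold change of 2.02 (adjusted p = 0.0165, with a standard error of 0.41). *CD63* (100008988), a tetraspanin of late endosomes and lysosomes, had 736, 504, 648, 372 and 742 CPM and 226, 214 and 245 CPM. No overlap was seen, and the change was 1.39 (adjusted p = 0.0144, with a standard error of 0.27). *LAMP1* (100353993), a major membrane glycoprotein of lysosomes, was at 437, 311, 371, 188 and 462 CPM and 176, 141 and 155 CPM. The lowest Perthes rabbit, rabbit 4, was just above the highest control, and the difference was 1.17 (adjusted p = 0.0309, with a standard error of 0.30).

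*LAMP2* (100350946), which also serves in chaperone-mediated autophagy and, like *LAPTM4B*, was named after its values were seen, had 464, 213, 238, 181 and 318 CPM in Perthes rabbits and 119, 119 and 148 CPM in controls and rose by 1.14 on the log2 scale (adjusted p = 0.0432, with a standard error of 0.32). *LAPTM4B* (100356277), a small membrane protein, had the smallest called rise, 0.61 (adjusted p = 0.0487, with a standard error of 0.18), with 44.95, 53.7, 47.00, 51.7 and 45.7 CPM and 23.5, 34.6 and 37.2 CPM. Perthes rabbit 4 was not low for *LAPTM4B*. *LAPTM5*, which is found mainly in blood cells, was at 919, 561, 793, 227 and 866 CPM and 543, 251 and 237 CPM. No control was below Perthes rabbit 4 or above Perthes rabbit 2 here, so the groups overlapped, and the estimate of 0.97 (adjusted p = 0.194, with a standard error of 0.48) did not pass. *LAMP3*, a member of the LAMP family found in mature dendritic cells, had 37, 5, 15, 15 and 74 counts in Perthes rabbits and 0, 3 and 7 in controls, too few for a firm estimate, and was not called (adjusted p = 0.0749). *LAPTM4A* and *SCARB2*, a sorting receptor of the lysosomal membrane, had 0.97 and 0.93 with adjusted p-values of 0.0542 and 0.0644.

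Of 13 transporters, channels and membrane enzymes, 1 rose, with a median log2 fold change of 0.36. This was *NPC1* (100008746), which exports cholesterol from the lysosome together with *NPC2*, at 138, 98.2, 126, 80.1 and 141 CPM in Perthes rabbits and 55.2, 51.6 and 48.4 CPM in controls. The groups did not overlap, and the log2 fold change was 1.17 (adjusted p = 0.0138, with a standard error of 0.22). *SLC17A5*, a sialic acid exporter, and *HGSNAT*, the acetyltransferase of heparan sulfate breakdown, had every Perthes rabbit above the controls at 0.66 and 0.46, with adjusted p-values of 0.0780 and 0.154. The calcium channel *MCOLN1*, at 0.01 (adjusted p = 0.970, with a standard error of 0.20), and the sorting receptor *SORT1*, at -0.09 (adjusted p = 0.749, with a standard error of 0.16), had estimates near 0. *SLC11A1*, a metal transporter of phagocytes, varied widely, at 17.6, 4.42, 14.4, 40.2 and 64.6 CPM and 25.6, 12.2 and 6.05 CPM, with its 2 highest values in Perthes rabbits 4 and 5. The iron transporter *SLC11A2* was below the controls in every Perthes rabbit at -0.38, with an adjusted p of 0.194.

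The genes that tag hydrolases with mannose 6-phosphate and carry them numbered 4, of which 1 rose, and their median was 1.11. *IGF2R* (100009573), the large mannose 6-phosphate receptor that also clears IGF2, had 584, 509, 721, 288 and 657 CPM in Perthes rabbits and 188, 181 and 198 CPM in controls. All controls were below Perthes rabbit 4, the lowest of its group, and the log2 fold change was 1.55 (adjusted p = 0.0150, with a standard error of 0.30). *GNPTAB*, which encodes subunits of the enzyme that starts the tag, and *NAGPA*, which uncovers it, had 1.17 and 1.05 with overlapping groups and adjusted p-values of 0.103 and 0.112. The small receptor *M6PR* had 0.53 (adjusted p = 0.175, with a standard error of 0.25).

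Coats and adaptors form the vesicles that leave the Golgi and endosomes. Of 24 tested genes edgeR called 0 higher and 1 lower, with 3 higher and 2 lower at an unadjusted p below 0.05 and 1 higher and 2 lower by DESeq2. Over all 15305 genes, 2345 were higher and 2538 lower at an unadjusted p below 0.05. The median log2 fold change of the 24 was 0.10, compared with 0.73 over the 42 tested hydrolases and activators and 0.60 over the 24 tested membrane proteins. Of the 6 clathrin and GGA genes edgeR called 0, with 2 at an unadjusted p below 0.05 and 2 called by DESeq2, and the median was 0.27. *CLTC* (100338178), the clathrin heavy chain, was at 1219, 915, 804, 614 and 1104 CPM in Perthes rabbits and 659, 634 and 664 CPM in controls. Perthes rabbit 4 was below all controls and the others above, and the estimate of 0.51 (adjusted p = 0.192, with a standard error of 0.25) was not called. *GGA3*, an adaptor that binds the tails of mannose 6-phosphate receptors, had 38.6, 51.4, 46.9, 43.4 and 46.9 CPM and 103, 70.9 and 47.9 CPM. Only control rabbit 3 overlapped with the Perthes rabbits, and the log2 fold change was -0.70 (adjusted p = 0.0687, with a standard error of 0.23).

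The adaptor complex AP-1 sorts cargo between the Golgi and endosomes. Of its 8 tested subunits edgeR and DESeq2 called 0, with 1 at an unadjusted p below 0.05, and the median was 0.06. *AP1S2*, a small subunit, was at 181, 48.2, 69.4, 33.1 and 90.8 CPM and 32.3, 38.6 and 42.4 CPM. Perthes rabbit 1 was far above the rest, Perthes rabbit 4 was among the controls, and the log2 fold change was 1.16 (adjusted p = 0.145, with a standard error of 0.50). The core subunit *AP1G1* had 0.09 (adjusted p = 0.768, with a standard error of 0.18). Counts of *AP1M1* and of *LOC100349207*, described as subunit mu-2, were in part not whole numbers and are uncertain. Of 10 tested subunits of AP-3 and AP-4, *AP4M1* (100343610), the medium subunit of AP-4, fell, and the median of the 10 was 0.25. It had 4.86, 12.5, 8.33, 7.02 and 5.79 CPM in Perthes rabbits and 20.1, 15.2 and 13.3 CPM in controls. Every Perthes rabbit was below every control, and the change was -1.08 (adjusted p = 0.0440, with a standard error of 0.30).

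The Perthes rabbits were not alike. Relative to the mean log2 CPM of the controls, the median shift of the 94 tested members was 0.70, 0.50, 0.62, -0.01 and 0.74 in Perthes rabbits 1 to 5. For the 3 controls it was 0.08, -0.03 and 0.00. Thus Perthes rabbit 4 lay in the range of the controls in this median and the other 4 Perthes rabbits above it. Over all 15305 genes tested the medians in Perthes rabbits were 0.01, 0.00, 0.04, -0.02 and 0.01. For the hydrolases and activators the median shifts were 0.86, 0.81, 0.98, -0.01 and 1.03, and for the membrane proteins 0.87, 0.25, 0.56, 0.30 and 0.75. Perthes rabbit 4 was the lowest Perthes rabbit in 62 of the 94 tested members and in 20 of the 22 called higher, and in 25.9% of all genes tested. The median standard deviation of log2 CPM over the 22 members called higher was 0.53 among Perthes rabbits and 0.17 among controls, compared with 0.46 and 0.29 over the 94 tested members and 0.37 and 0.31 over all genes tested. The test itself favours genes with a low spread.

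A list of genes that control lysosome formation was examined beside the members. The factors TFEB, TFE3, MITF and TFEC bind a shared DNA element in lysosomal genes, and Rag GTPases with their partners hold them at the lysosome under nutrient control. Of 19 tested genes of the list, 3 rose and 1 fell, with a median of 0.35. *TFEB* (100328714) was at 12.2, 13.7, 14.5, 11.2 and 14.9 CPM in Perthes rabbits and 18.6, 13.05 and 9.74 CPM in controls. The groups overlapped fully, with a log2 fold change of -0.05 (adjusted p = 0.895, with a standard error of 0.22). *TFE3* had 0.37 (adjusted p = 0.221, with a standard error of 0.20) and *TFEC* 0.15 (adjusted p = 0.848, with a standard error of 0.47), and neither was called.

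*MITF* (100344730), which also acts in osteoclast formation, had 91.9, 33.8, 51.7, 17.7 and 79.2 CPM in Perthes rabbits and 7.68, 14.2 and 17.9 CPM in controls. Perthes rabbit 4 lay just below the highest control and the other 4 above all controls, and *MITF* rose by 2.05 (adjusted p = 0.0363, with a standard error of 0.54). *RRAGD*, a Rag GTPase, was at 21.6, 22.1, 17.4, 9.75 and 25.1 CPM and 6.61, 8.11 and 8.68 CPM. It rose by 1.30 (adjusted p = 0.0235, with a standard error of 0.30) with groups apart, and its family member *RRAGA* by 0.67 (adjusted p = 0.0192, with a standard error of 0.15). *RRAGD*, *RRAGA* and *PLEKHM1* were named after their values were seen. Among 17 tested genes that tether and fuse late endosomes with lysosomes, whose median was 0.35, 1 rose. This was *PLEKHM1*, an adaptor protein with a known role in osteoclasts, by 1.44 (adjusted p = 0.0385, with a standard error of 0.39). It was at 272, 195, 332, 87.4 and 289 CPM and 88.7, 91.01 and 80.95 CPM, so that Perthes rabbit 4 was among the controls.

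Markers of several cell types differed between the groups alongside the members. The summed level of the 97 members was 18669, 12875, 15846, 7686 and 17059.9 CPM in Perthes rabbits and 7209, 6636 and 6796 CPM in controls, and without *PSAP* it was 15591, 10769, 13306, 6931 and 14851 CPM and 6523, 5998 and 6194 CPM. Every Perthes rabbit was above the controls in both sums. The 11 macrophage markers summed to 1919, 994, 1300.1, 511 and 1667 CPM and 868, 624 and 557 CPM. Perthes rabbit 4 was below all controls in this sum, and from highest to lowest the order of the Perthes rabbits (1, 5, 3, 2 and 4) was that of the summed members. The macrophage marker with the highest mean CPM over all rabbits was *CSF1R*, the receptor for the growth factor of macrophages and osteoclasts. It had 394, 334, 396, 186 and 431 CPM and 157, 178 and 162 CPM, a log2 fold change of 1.07 (adjusted p = 0.0326, with a standard error of 0.27). Among controls alone the mean of *C1QC* was higher, at 170.8 CPM against 165.7 CPM for *CSF1R*, and in Perthes rabbit 1 *MRC1* was higher, at 406 CPM.

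Within the macrophage list 4 genes were higher (*CD14*, *VSIG4*, *CSF1R* and *MRC1*) and 1 was lower. The lower one, *C1QC*, a subunit of complement C1q, was at 31.95, 61.2, 58.6, 27.8 and 21.6 CPM in Perthes rabbits and 221, 163 and 129 CPM in controls, a change of -2.09 (adjusted p = 0.0133, with a standard error of 0.36). The scavenger receptor *CD163*, at 0.19, was not called. Of the 10 osteoclast markers, 2 were higher (*CTSK* and *DCSTAMP*), and their sums were 4015, 4964, 4806, 3187 and 6232 CPM and 1854, 2912 and 2653 CPM. *CTSK* had the highest mean CPM over all rabbits, at 2546, 2350.3, 2280.1, 991 and 3773 CPM and 404, 783 and 831 CPM. *MMP9* was above *CTSK* in every control, at 605, 1146 and 937 CPM, and in Perthes rabbit 4, at 1308 CPM. All Perthes rabbits were above the controls in the osteoclast sum only with *CTSK* in it. The sums of the other 9, looked at after the data were seen, were 1469, 2614, 2526, 2195 and 2459 CPM and 1450.1, 2129.9 and 1822 CPM, and Perthes rabbit 1 was then below controls 2 and 3. *CTSK*, *ACP5* and *ATP6V0D2* of this list carry the lysosome term themselves. The calcitonin receptor *CALCR*, found in mature osteoclasts, was at 0.405, 1.39, 1.40, 1.02 and 1.57 CPM and 0.286, 0.670 and 0.333 CPM and was not called. The part of macrophage and osteoclast numbers in the members' levels was not tested.

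The summed levels of neutrophil, erythroid and B and T cell markers were lower in every Perthes rabbit than in any control. The 9 neutrophil markers summed to 30.5, 2008, 746, 1949 and 213 CPM in Perthes rabbits and 24806, 7774 and 7407 CPM in controls, with 4 called lower, and the most abundant was *LCN2* at 7.26, 417, 149, 453 and 42.1 CPM and 5119, 2085 and 2186 CPM. The 12 erythroid markers summed to 678, 3292, 894, 1075 and 670.5 CPM and 7502, 7384 and 6650.0 CPM, with 2 called lower, among them *TFRC*. *SLC4A1* had the highest mean CPM over all rabbits, at 4.53, 819, 149, 149 and 23.9 CPM and 2296, 1902 and 1560.3 CPM. In Perthes rabbits 1, 3, 4 and 5 *TFRC* was far above *SLC4A1*, at 641, 427, 551 and 579 CPM. It took most of the sum in Perthes rabbits 1 and 5 and, at 551 of 1075 CPM, just over the larger part in Perthes rabbit 4. Every gene of both lists was below the controls in every Perthes rabbit. The 9 B and T cell markers summed to 11.7, 31.3, 19.8, 16.3 and 12.01 CPM and 41.4, 48.7 and 33.9 CPM. *CD79B* had the highest mean CPM over all rabbits, at 1.22, 10.04, 3.64, 2.95 and 1.43 CPM and 12.5, 14.8 and 9.01 CPM. Among Perthes rabbits alone the mean of *PAX5* was higher, at 4.60 CPM against 3.85 CPM for *CD79B*. Of 8 tested, 1 was called, *MS4A1*, with a log2 fold change of -2.03. In the other 7 tested B and T cell markers the groups overlapped. The part of these blood cell transcripts in the CPM of the members was not tested.

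The osteoblast and osteocyte list and the chondrocyte list, which bear on the label of femoral head, were high in all libraries. The 10 osteoblast and osteocyte markers, led by *COL1A1* at 44666, 143897, 126120.0, 66399 and 75092 CPM and 72816, 90894 and 82141 CPM, summed to 88754, 243748, 216637, 122862 and 133257 CPM and 120362, 155921 and 151186 CPM. EdgeR called 0 of them, with 2 at an unadjusted p below 0.05 and 1 called by DESeq2. The 10 chondrocyte markers, led by *COL2A1* at 29008, 36710.2, 68464, 116594 and 51419 CPM and 42826, 43129 and 57453 CPM, summed to 39556, 44062, 82484, 154932 and 65102 CPM and 50279, 47405 and 69271 CPM. Of the 9 tested edgeR and DESeq2 called 0, with 3 at an unadjusted p below 0.05, *MATN1* was near 0 throughout, and Perthes rabbit 4, the lowest for the members, had the highest sum. The 9 fibroblast markers, led by *COL3A1* at 20732, 11736, 12706, 16274 and 16016 CPM and 780.5, 1634 and 6747 CPM, summed to 26042, 14445, 15077, 19511 and 19103 CPM and 1493, 3139 and 8856 CPM. Of 8 tested, 3 were higher (*COL3A1*, *POSTN* and *THY1*), *PI16* was at or below 3 counts in every library, and Perthes rabbit 4 was not low in this sum.

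Of the endothelial, adipocyte and muscle lists, edgeR called 1 gene. The 9 endothelial markers summed to 339, 408, 482, 429 and 355 CPM in Perthes rabbits and 431, 405 and 359 CPM in controls, with *PECAM1* the most abundant at 84.7, 74.7, 94.2, 120.2 and 84.9 CPM and 155, 98.1 and 84.3 CPM, and 1 was called, *ERG*, a transcription factor of endothelium, with a log2 fold change of -0.59 (adjusted p = 0.0359, with a standard error of 0.16). DESeq2 called *ERG* lower and 2 endothelial markers higher, *VWF* and *ROBO4*, whose edgeR estimates were 1.59 and 0.74 with adjusted p-values of 0.0606 and 0.0606. The 6 adipocyte markers summed to 1009, 1484, 898, 135 and 1486 CPM and 493, 1459 and 585 CPM, led by *LPL* at 666, 758, 566, 66.1 and 1179 CPM and 217, 957 and 336 CPM, and Perthes rabbit 4 was by far the lowest. The 5 muscle markers summed to 17.7, 8.65, 8.59, 9.24 and 14.9 CPM and 6.47, 17.9 and 67.7 CPM, led by *TTN* at 15.5, 7.41, 6.61, 2.29 and 11.03 CPM and 4.25, 16.8 and 51.2 CPM. EdgeR and DESeq2 called 0 of the 6 adipocyte and 4 tested muscle markers, of which 0 and 1 had an unadjusted p below 0.05.

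**Figure D3:**
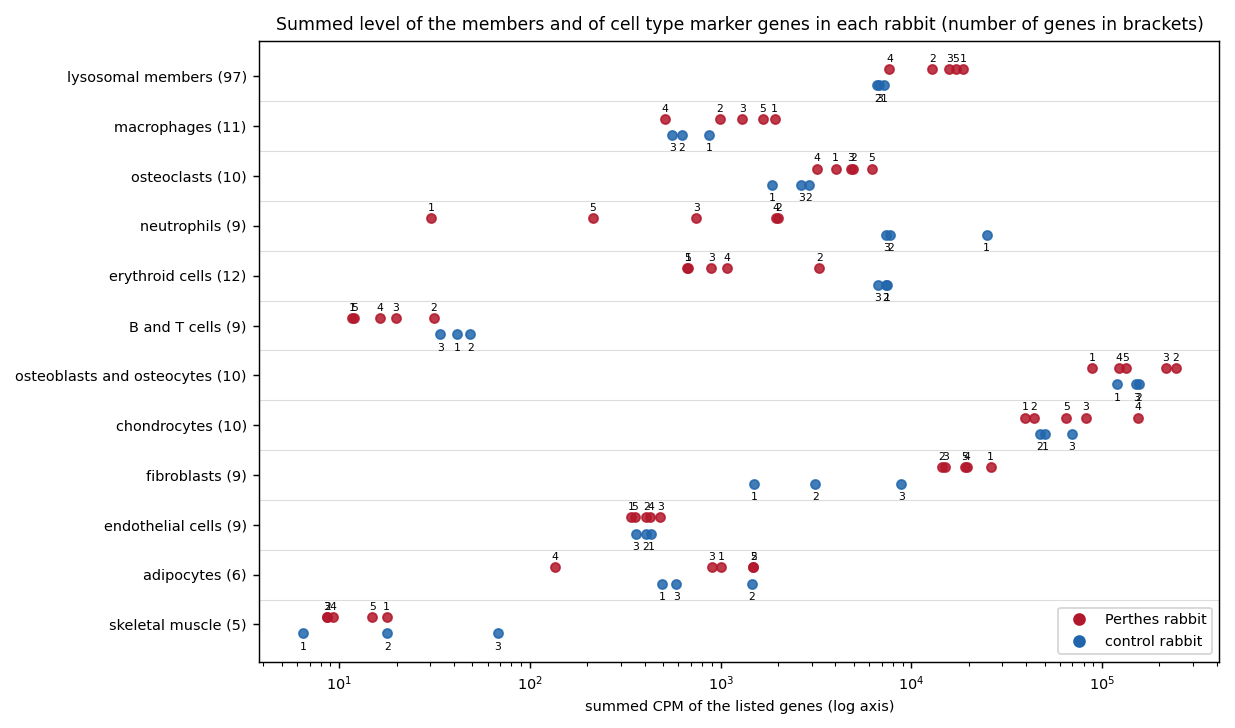
Summed CPM (x axis, logarithmic) of the 97 lysosomal members and of 11 lists of cell type marker genes in each rabbit, with the rabbit's number beside its point. The members, the fibroblast markers and, with *CTSK* among them, the osteoclast markers were higher in every Perthes rabbit than in any control, the neutrophil, erythroid and B and T cell markers were lower, and Perthes rabbit 4 is lowest of its group for the members, macrophages, osteoclasts and adipocytes.

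The KEGG disease annotation in the same table names an inherited disorder for 61 members, of which 60 were tested, with 15 higher and 2 lower and a median log2 fold change of 0.62. All 4 tested genes annotated with gangliosidosis rose, as did 5 of 9 annotated with sphingolipidosis and 3 of 9 with mucopolysaccharidosis. Of 6 genes annotated with neuronal ceroid lipofuscinosis 1 fell and 0 rose by edgeR, with 1 higher at an unadjusted p below 0.05 and 0 by DESeq2, and with a median of 0.10. The annotations overlap, so a gene can count under several.

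Of the 21 lysosomal genes that the choice by symbol left out, 11 were higher, with a median log2 fold change of 1.14. Of 11 named cathepsins 9 were higher, with a median of 1.83. Of 9 proton pump genes 2 were higher (*ATP6V1H* and *ATP6AP1*), with a median of 0.57. The difference between these genes and the members was not tested. *CTSB* and *CTSD*, lysosomal proteases whose precursors carry the mannose 6-phosphate tag, were at 3771, 2427, 3546, 745 and 5561 CPM and 2741, 2479, 2788, 563 and 3758 CPM in Perthes rabbits and at 579.6, 488 and 509 CPM and 497, 426 and 333 CPM in controls. Perthes rabbit 4 was again the lowest of its group for both.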

How the data were processed

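Gene-level expected counts from the submitters' RSEM quantification (version 1.1.17, after HISAT2 alignment) of rRNA-depleted directional libraries were rounded and fitted for all genes with edgeR 4.0.16 in R 4.3.3: filterByExpr by group, TMM factors, and the quasi-likelihood F-test of 5 Perthes against 3 control rabbits with no covariate. Adjusted p-values are Benjamini-Hochberg over 15305 genes. Standard errors are the absolute log2 fold change divided by the square root of F. DESeq2 1.42.0 was the alternative test. The members and lists were chosen with earlier results of these data known. Named were, in each role list, up to 3 called members a direction, taken by size of log2 fold change, or else the tested member with the largest absolute estimate; the 3 members with the highest mean CPM; *TFEB*, *TFE3*, *MITF* and *TFEC*; and the most abundant gene of each marker list. All other genes named were chosen after their values were seen, and some genes under the rule are not reported here. Transcript lengths were not used, so the most abundant gene of a list is the one with the highest mean CPM over all 8 rabbits. It need not lead in each group or rabbit.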

Additional observations from a re-analysis of the deposited data

Results flagged for a closer look

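In 74 sets of 5 Perthes values examined, 1 rabbit stood far from the other 4 in 4 sets, and chance flags about 1 in 20 groups. Perthes rabbit 4 stood apart in the median log2 shift of the 42 tested hydrolases and activators, at -0.0130, against 0.86, 0.81, 0.98 and 1.03 in Perthes rabbits 1, 2, 3 and 5. The other 3 sets concerned blood cell markers in Perthes rabbit 2. The summed level of the 12 erythroid markers was 3292 CPM in that rabbit, compared with 670.5 to 1075 CPM in the other Perthes rabbits. *SLC4A1* was at 819 CPM and the B cell gene *CD79B* at 10.04 CPM, each the highest of the 5 Perthes values.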

How the results depend on the processing

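The counts of members called moved with the rabbits included and with the test, and the cause was not tested. With 1 rabbit left out, 0 to 40 members were higher and 0 to 3 lower, and beyond a log2 fold change of 1 these were 0 to 29 and 0 to 3, compared with 19 and 2 with all rabbits. DESeq2 called 37 members higher. With at least 10 counts required in every library, 1 member was lower beyond a log2 fold change of 1, since *LOC100344030* was not among the genes tested. With the study's own thresholds (log2 fold change beyond 2 and adjusted p below 1e-05), edgeR called 0 higher and 0 lower, and DESeq2, the study's tool, in an alternative chosen after seeing the data, 3 higher (*LOC100008830*, *LGMN* and *CD68*) and 0 lower. Rabbit numbers as a replicate block, which pairs the groups, gave 0 higher and 0 lower, also beyond 1, with 41 of 94 members and 20.6% of all genes at an unadjusted p below 0.05. The profiles cannot decide whether the numbers pair the rabbits, as only 3 pairs share a number. After removing group means, correlations of rabbits with the same number were -0.317, 0.161 and -0.238. Those of rabbits with different numbers ranged from -0.314 to 0.435. The title of control 3 says replicate 2 where its code, used here, says 3. The other scalings and filters gave 19 to 23 higher and 2 to 4 lower, and the median ranged from 0.48 to 0.63 with 1 rabbit left out. Without the alpha-mannosidase genes, an alternative chosen after seeing the data, 22 were higher and 3 lower. Of 405 alternatives over 29 named genes, 284 kept direction and side of the threshold, 113 lost the call, 4 gained it and 4 changed sign, all in genes not called: *TFEB* at 0.0133 with the block and from -0.248 to 0.227 with 1 rabbit left out, and *TFEC* from -0.263 to 0.339. Low counts limit *LOC100344030*, *LAMP3* and the 3 untested members.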
